A study of Mus musculus with 15 samples.

Results

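The E2F and retinoblastoma family was followed through MYC-driven liver tumour formation and early regression in mice. All probes that carried the symbol of E2f1 to E2f8, Rb1 or Rbl1 in the deposited probe table were taken, and each probe is described apart. This gave 20 probes of 10 genes among 41174 probes on the array, of which 16 probes of 9 genes were bright enough to be tested. All animals were FVB/N mice, and all carried LAP-tTA, a doxycycline-repressed transactivator made in liver cells under a liver promoter. The control livers (3 arrays) carried LAP-tTA alone. The other groups also carried TRE-MYC, a transgene in which the activator drives MYC once doxycycline is taken out of the food. Pre-tumor livers (4 arrays) were taken after 4 to 5 weeks off doxycycline, and tumor nodules (4 arrays) after 8 to 9 weeks. The regression group (4 arrays) was tumor tissue from mice that had spent 8 to 9 weeks without doxycycline and were given it again for 72 hours. All mice had been fed doxycycline until they were more than 8 weeks old. The time off doxycycline of the controls was not given. The labels do not state whether each array was a separate animal, so p-values measure only the spread between these samples, which may be technical. MYC is made in this model in the cells that make LAP-tTA, while RNA came from whole liver or tumor tissue with all its cell types. All 6 hepatocyte markers measured (Alb and Ttr among them) were well above background on every array.

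E2F proteins are transcription factors that bind the promoters of genes for DNA synthesis and mitosis. The retinoblastoma protein and its relatives, the pocket proteins, bind most E2Fs and hold those genes silent in resting cells. Cyclin D and cyclin E kinases phosphorylate the pocket proteins before S phase and so release E2F. E2F1, E2F2 and E2F3 are described as activators, E2F4 and E2F5 mostly as repressors that work with pocket proteins, and E2F6 as a repressor with Polycomb partners. E2F7 and E2F8 are atypical repressors that bind DNA without a DP partner, and in mouse liver they are known for their part in hepatocyte polyploidy. Several E2F genes and Rbl1 are textbook E2F targets themselves.

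Promoters of 7 of the 10 genes were found in RefSeq's table for GRCm38.p6, in 9 windows that run from 250 bases before the annotated start to 50 bases after it. They were searched on both strands for the E2F letters TTCCCGC or TTCGCGC and also TTGCCGC or TTGGCGC, and for the E-box CACGTG, the letters that MYC and other E-box proteins bind. Overlapping matches would be counted once, and there were none. Of all 32851 promoter windows, 9.57% held at least 1 E2F match and 7.15% an E-box. E2F letters were present in 5 of the 9 windows and an E-box in 1 of the 9. The windows of E2f7, E2f8 and Rbl1 and the E2f3 window that holds E2F letters are shown because they hold matches, and that of E2f1 because this gene's probes are described beside E2f8's. Capitals mark the E2F letters, on either strand, read 5′ to 3′ in the direction of the gene.
E2f7: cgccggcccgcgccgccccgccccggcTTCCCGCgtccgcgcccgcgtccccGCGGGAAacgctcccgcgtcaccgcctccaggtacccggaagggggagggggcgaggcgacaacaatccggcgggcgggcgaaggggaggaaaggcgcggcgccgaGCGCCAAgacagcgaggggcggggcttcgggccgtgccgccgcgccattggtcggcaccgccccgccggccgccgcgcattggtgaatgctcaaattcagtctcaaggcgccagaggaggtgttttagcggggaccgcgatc
E2f8: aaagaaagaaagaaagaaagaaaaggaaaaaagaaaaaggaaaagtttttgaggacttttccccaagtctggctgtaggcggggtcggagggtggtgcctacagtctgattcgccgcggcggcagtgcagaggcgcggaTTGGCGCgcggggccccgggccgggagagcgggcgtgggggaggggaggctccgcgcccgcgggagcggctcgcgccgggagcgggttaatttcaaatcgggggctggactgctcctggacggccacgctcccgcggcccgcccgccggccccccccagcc
Rbl1: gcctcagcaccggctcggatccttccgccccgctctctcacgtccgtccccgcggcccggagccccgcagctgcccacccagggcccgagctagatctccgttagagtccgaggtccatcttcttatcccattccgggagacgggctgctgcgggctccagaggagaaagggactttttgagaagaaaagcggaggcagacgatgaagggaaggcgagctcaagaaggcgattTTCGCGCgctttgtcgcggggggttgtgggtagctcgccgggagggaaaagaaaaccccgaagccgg
E2f3: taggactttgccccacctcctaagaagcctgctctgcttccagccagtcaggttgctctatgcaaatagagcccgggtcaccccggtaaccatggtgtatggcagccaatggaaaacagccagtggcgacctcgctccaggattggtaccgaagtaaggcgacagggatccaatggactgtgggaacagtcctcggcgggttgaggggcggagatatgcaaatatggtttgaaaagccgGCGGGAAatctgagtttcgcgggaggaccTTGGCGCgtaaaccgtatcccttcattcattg
E2f1: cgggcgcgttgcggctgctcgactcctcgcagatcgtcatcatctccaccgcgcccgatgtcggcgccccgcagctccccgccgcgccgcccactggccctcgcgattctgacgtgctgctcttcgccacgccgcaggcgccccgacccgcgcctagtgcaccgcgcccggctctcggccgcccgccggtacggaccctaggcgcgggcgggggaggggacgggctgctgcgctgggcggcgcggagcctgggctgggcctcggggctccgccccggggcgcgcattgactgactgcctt
The E2f7 window (chr10:110745189-110745488, plus strand) held 3 matches, which began at positions -223, -198 and -92 relative to the start. The E2f8 window (chr7:48881547-48881846, minus strand) held 1, at -111, and the Rbl1 window (chr2:157204485-157204784, minus strand) held 1, at -17. The E2f3 window shown (chr13:29986014-29986313, minus strand) held 2, at -11 and 19. The E2f2 window (chr4:136172024-136172323, plus strand), not shown, held 1, at 41. The E2f1 window (chr2:154569377-154569676, minus strand) held none. It was the only E2f1 window in the table, and whether it covers the gene's main start was not tested. Its lack of matches therefore does not describe the E2f1 promoter as a whole. A match describes the letters only. It does not show binding, and the absence of these letters in a window says nothing about the factor.

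Signals are given below as a percentage of the same array's 75th percentile, the scale on which arrays were made comparable. A probe's percentage cannot be set against that of another probe, since probes differ in brightness. A probe was called well above background where the scanner software marked it so. Differences are on the log2 scale with the standard error of limma's fit, and a probe was called changed where its adjusted p, over all 33957 probes tested, was under 0.05. Of the spots on an array, 46.4% (tumor 3) to 90.8% (pre-tumor 4) were well above background. The median of all probes was itself shifted, by -0.21 between tumor and control, -0.15 between tumor and pre-tumor, -0.15 between regression and tumor and -0.28 between regression and control. On 4 arrays (control 1, pre-tumor 1, pre-tumor 4 and tumor 4) the added E1A spike-in RNA was brightest relative to the 75th percentile. Of the 3 Myc probes, A_52_P108346 was at 32.4% to 85.1% in control livers, 107% to 562% in pre-tumor livers, 1260% to 2810% in tumor nodules and 56.5% to 93.1% in regression. The other Myc probes ran the other way, and one of them, A_51_P102096, was at 7.68% to 19.9% in tumor nodules and 20.4% to 33.8% in control.

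**Figure D1:**
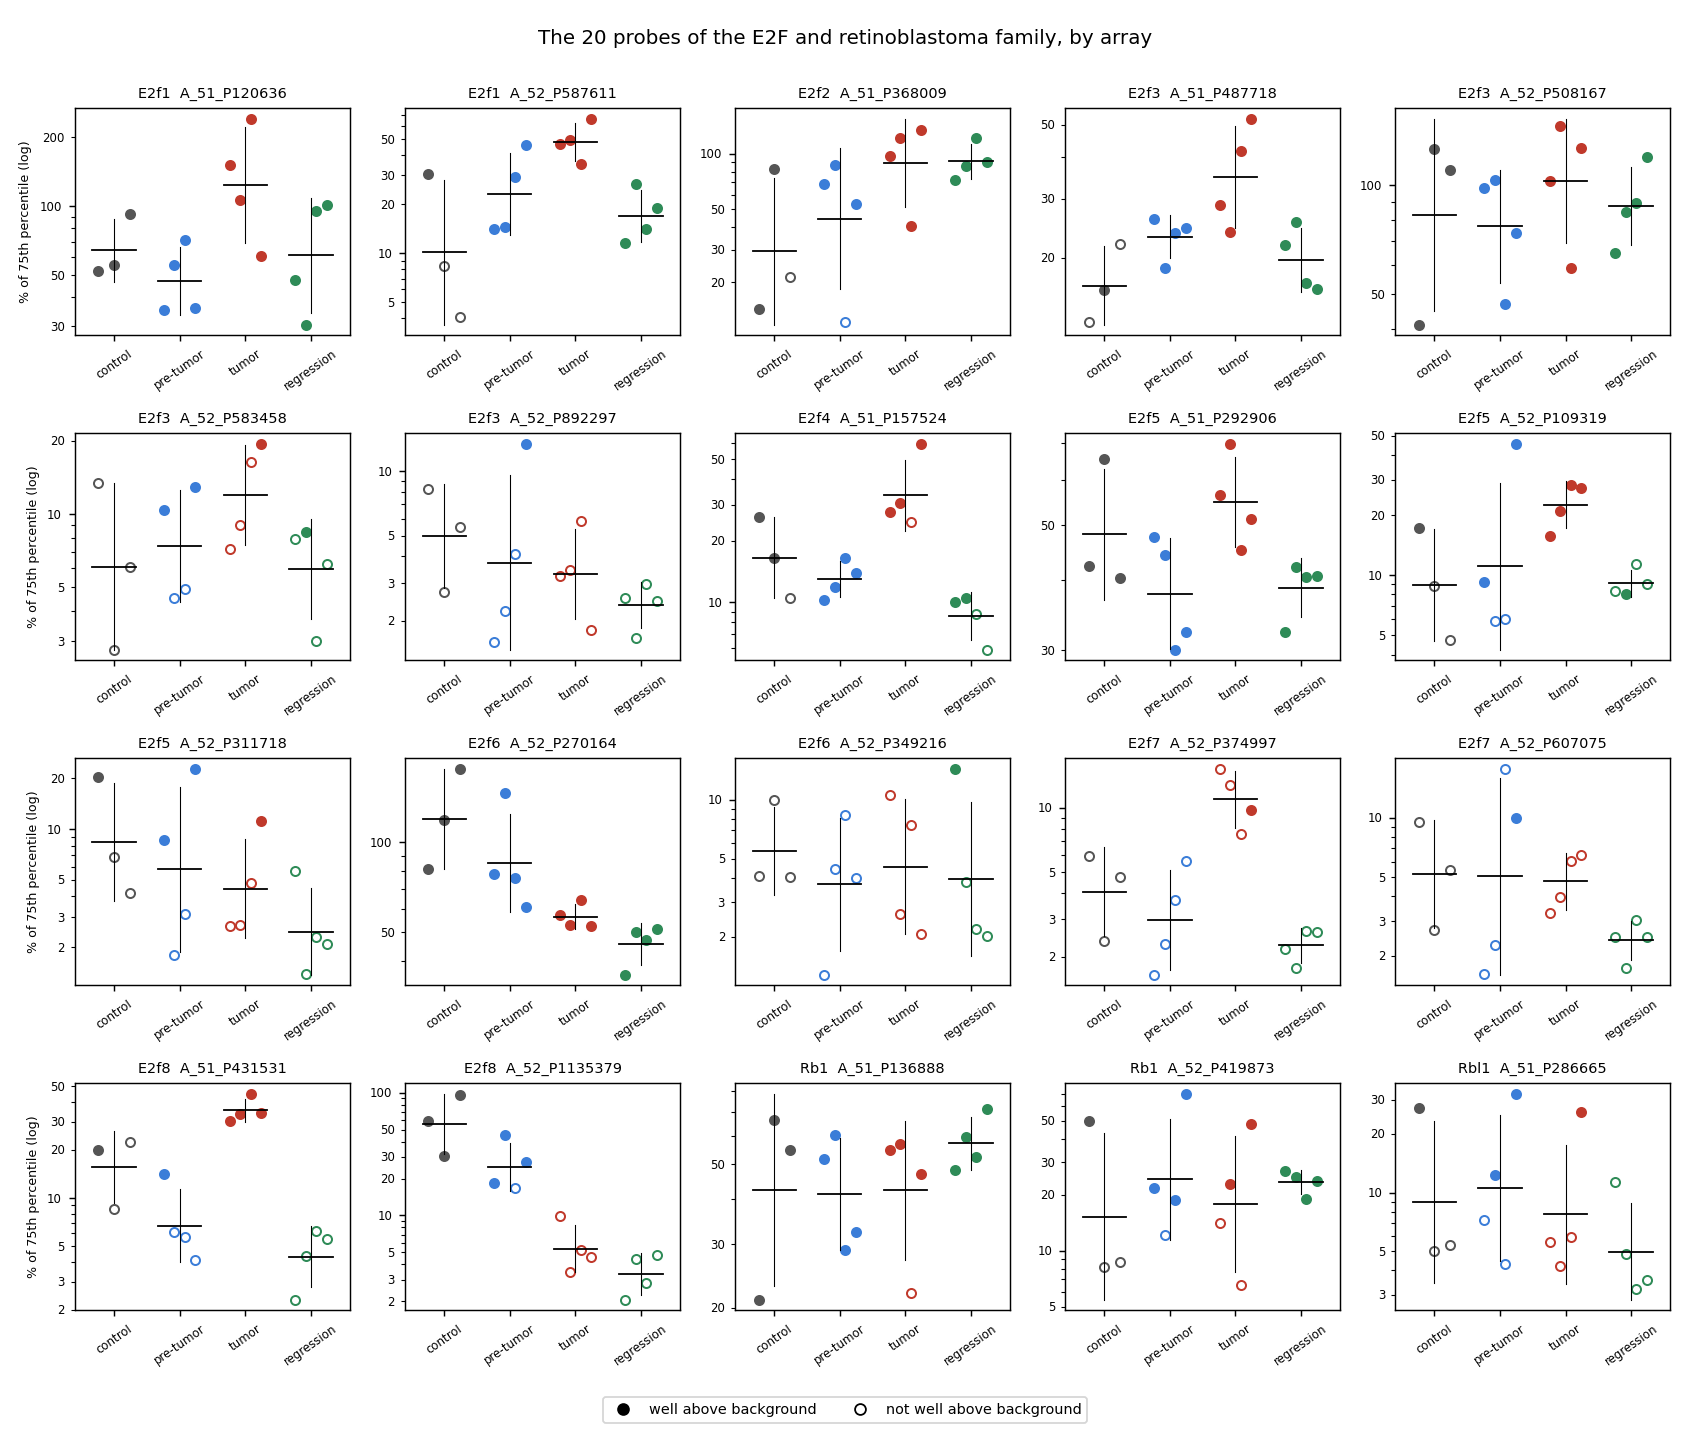
Signal of each of the 20 probes on each of the 15 arrays, as a percentage of that array's 75th percentile (vertical log axis), in control, pre-tumor, tumor and regression samples. Filled points are arrays on which the probe was well above background and open points are those on which it was not; the horizontal line is the mean of log2 values and the vertical line runs 1 SD either way. The first E2f8 probe stands highest in all 4 tumor arrays, the second E2f8 probe falls away in tumor and regression, and E2f7 is measured above background on 1 array per probe.

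Of the 16 probes tested, none was called in pre-tumor minus control, where limma called 0.0% of all probes; at an unadjusted p under 0.05, 2 of the 16 and 824 of all probes passed. In tumor minus control, 1 probe of E2f1 rose and 1 probe of E2f8 fell, where 14.3% of all probes were called, 8.1% higher and 6.18% lower. Without overlap between groups, 3 probes stood higher and 2 lower, beside 12.6% and 11.1% of all probes. The median difference of the 16 was 0.63, and that of all probes was -0.21. In tumor minus pre-tumor, E2f4 and 1 probe of E2f8 rose and the other E2f8 probe fell, where 17.0% of all probes were called, 8.93% higher and 8.04% lower. In regression minus tumor, E2f4 and 1 probe of E2f8 fell and none rose, where 14.4% of all probes were called, 6.9% higher and 7.46% lower. Of the 16, 13 had a negative difference in that comparison and 6 stood lower without overlap, as 12.9% of all probes did, and their median was -0.76 beside -0.15 for all probes. In regression minus control, E2f6 and both E2f8 probes fell and none rose, where 6.83% of all probes were called, 4.03% higher and 2.8% lower, and 4 stood lower without overlap, as 14.9% of all probes did. The member count in tumor minus control depended on the processing: 6 of the 16 were called in the authors' deposited table, where the same fit called 17.3% of all probes, and 5 with median centring, where it called 12.8%. The comparisons share arrays, so their values are not independent of each other.

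**Figure D2:**
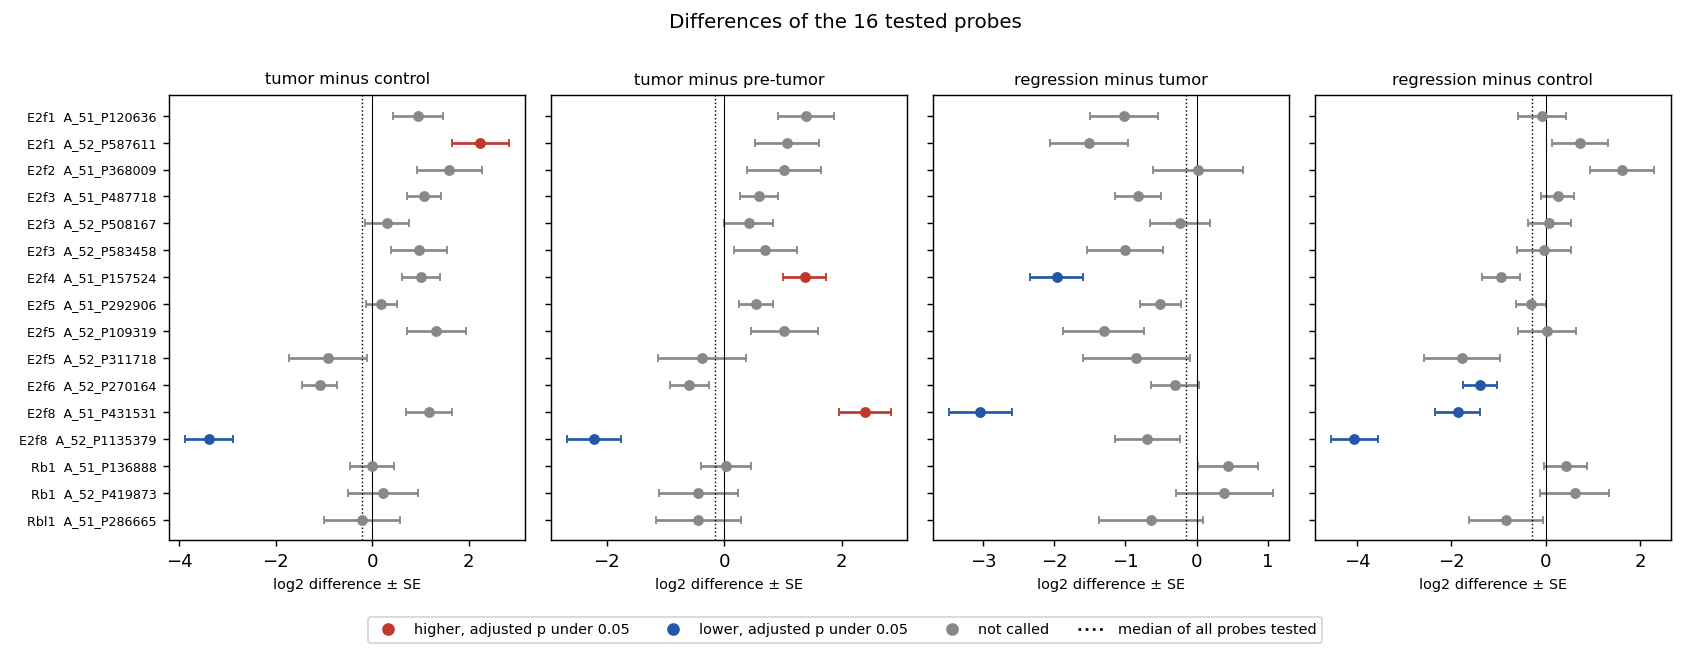
Log2 difference (horizontal axis) with its standard error for the 16 tested probes in 4 comparisons, coloured where the adjusted p was under 0.05; the dotted line is the median of all 33957 probes. The E2f8 probes lie on opposite sides of 0 in tumor minus control and tumor minus pre-tumor, and E2f4 and the mRNA probe of E2f8 are the called falls in regression minus tumor.

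The E2f8 probes varied most among the 13 member probes bright enough for a profile (well above background throughout at least 1 of the groups), with an SD over the 15 arrays of 1.75 and 1.36 on the log2 scale, and they ran in opposite directions between tumor and the livers before it. Probe A_51_P431531 matches the RefSeq E2f8 mRNA on chromosome 7. It was at 19.9%, 8.57% and 22.4% in control livers, 14.1%, 6.14%, 5.74% and 4.09% in pre-tumor livers, 30.2%, 33.4%, 44.9% and 34.1% in tumor nodules, and 2.31%, 4.31%, 6.23% and 5.53% in regression. Every tumor array was above every array of the other groups. The probe was well above background on 4 of 4 tumor arrays, 1 of 4 pre-tumor arrays, 1 of 3 control arrays and 0 of 4 regression arrays. E2f8 rose in tumor relative to pre-tumor liver by 2.39 ± 0.44 (limma adjusted p = 0.0011656). The size depended on the processing. The log2 difference was 0.80 in the authors' deposited table and 0.35 with normexp, another background correction, and both were called. After 72 hours back on doxycycline it was at least 3.88-fold lower than in tumor (adjusted p = 0.0003353). "At least" means that the mean of the brighter group was set against the lowest signal that counted as well above background on the dim arrays, or the dim probe's own signal where that was higher. A bound is given only where every array of the brighter group was well above background, and it holds for the fit reported. Over 26 alternatives, all called, this probe's difference between regression and tumor ran from -3.21 to -0.35 on the log2 scale. The difference between tumor and control was 1.17 ± 0.48 and was not called (adjusted p = 0.121), although the groups did not overlap. It was called in 3 of 26 alternatives, among them the authors' deposited table (adjusted p = 0.0243).

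Regressing tumors were below control livers too, by 1.86 ± 0.48 on the log2 scale for this probe (adjusted p = 0.026725). Only 1 of 3 control arrays and no regression array were well above background, so the size of this difference was not measured. That call was lost under 12 of 26 alternatives, with an adjusted p of up to 0.318. Within slides, which held at most 1 array of each group, tumor exceeded pre-tumor by 1.09 to 3.03 in 4 of 4 slides. Regression lay below tumor by a log2 difference of -3.86 to -2.45 in 4 of 4 slides. With slide as a block, the adjusted p was 0.0042 for tumor minus pre-tumor and 0.00184 for regression minus tumor.

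Probe A_52_P1135379 carries the same symbol but was designed to an unclassified cDNA clone, 19857 bases away from the first probe in the deposited coordinates, and written on the plus strand, whereas RefSeq has E2f8 on the minus strand. In RefSeq's GRCm38.p6 table the non-coding RNA genes LOC115486422 and Gm2788 overlap E2f8, and Gm2788 also covers the whole promoter window printed above. The build of the deposited probe coordinates was not stated, so the probe was not placed relative to them, and what RNA it measures was not tested. It was at 58.2%, 30.7% and 95.7% in control livers, 18.5%, 45.0%, 16.9% and 27.2% in pre-tumor livers, 9.93%, 3.47%, 5.26% and 4.59% in tumor, and 2.06%, 4.44%, 2.81% and 4.81% in regression. No tumor or regression array was well above background, against 3 of 3 control arrays and 3 of 4 pre-tumor arrays. Its signal was at least 4.23-fold lower in tumor than in control (adjusted p = 0.0002275). In regression it was at least 6.1-fold lower than in control (adjusted p = 0.00013293). Tumor minus pre-tumor was -2.21 ± 0.46 (adjusted p = 0.0029759). No bound is given for that difference, because 1 pre-tumor array was also not well above background. The tumor against pre-tumor call was lost with normexp (adjusted p = 0.203) and in the authors' deposited table (adjusted p = 0.1704). Regression minus tumor was -0.69 ± 0.46 (adjusted p = 0.424), with both groups below background. Both calls against control held in all 27 alternatives, but with normexp and its offset of 50, which compresses dim signals, tumor minus control was -0.53 in place of -3.37. Of 6 hepatocyte markers, 5 fell in tumor relative to control, beside 6.18% of all probes. In regression relative to tumor 5 of these markers rose, beside 6.9% of all probes. The summed signal of the markers was 37870% to 122200% in tumor nodules and 333940% to 346140% in control livers, and 156910% to 342540% in regression, where the probe stayed below background. The part of tissue makeup in any of these differences was not tested, and in whole tissue fewer cells of a type and less RNA per cell cannot be told apart.

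**Figure D3:**
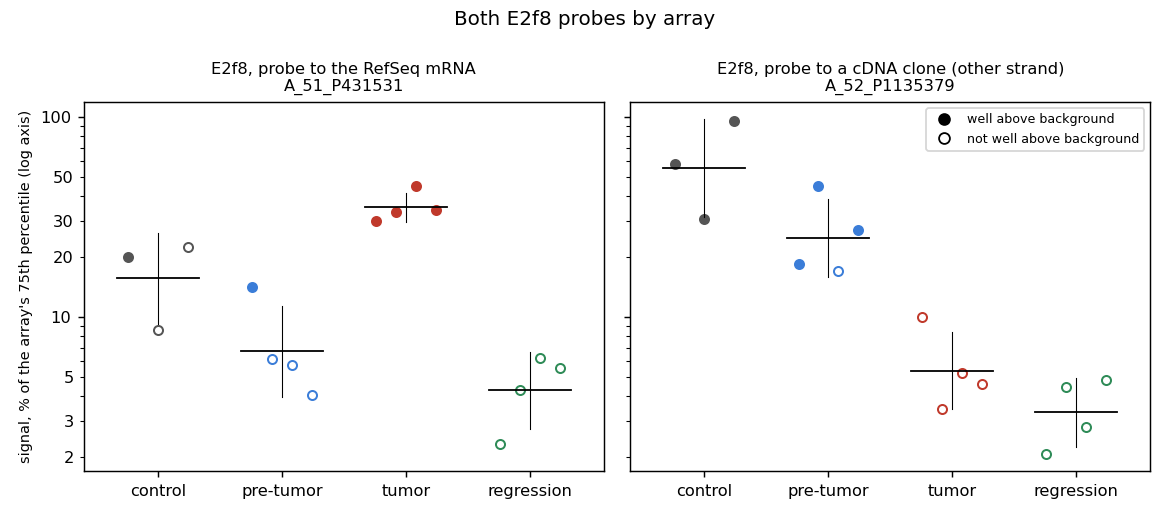
Signal of both E2f8 probes on the 15 arrays, as a percentage of the array's 75th percentile (log axis), with filled points where the probe was well above background, the group mean of log2 values as a horizontal line and 1 SD as a vertical line. The probe to the mRNA is at 30.2% to 44.9% in tumor and at 2.31% to 6.23% in regression; the probe to the cDNA clone is at 30.7% to 95.7% in control and at 3.47% to 9.93% in tumor.

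E2f7, the other atypical member, was close to the background. Probe A_52_P374997 on chromosome 10 was at 5.93%, 2.36% and 4.72% in control livers, 1.65%, 2.3%, 3.71% and 5.66% in pre-tumor livers, 15.3%, 12.8%, 7.51% and 9.81% in tumor nodules, and 2.17%, 1.77%, 2.64% and 2.61% in regressing tumors. All 4 tumor arrays were above all other arrays, but the probe was well above background on tumor 4 alone, and it was not tested. Since most of the tumor signal of this probe was itself not well above background, no fold difference or bound is given. The other E2f7 probe, to a cDNA clone 19388 bases away, showed no such order and was at 3.28% to 6.51% in tumor nodules and 2.72% to 9.5% in control.

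Among the activators, both E2f1 probes stood highest in tumor on average, and 1 of them was called. Probe A_52_P587611 was at 30.5%, 8.41% and 4.05% in control livers, 14.1%, 14.4%, 29.3% and 46.1% in pre-tumor livers, 46.3%, 49.1%, 34.9% and 66.6% in tumor nodules, and 11.5%, 26.6%, 14.0% and 18.9% in regressing tumors. Tumor did not overlap with control or regression but overlapped with pre-tumor. E2f1 by this probe rose in tumor relative to control by 2.24 ± 0.60 (adjusted p = 0.018042), with 1 of 3 control arrays well above background. The call was lost without control 3 (1.58, adjusted p = 0.1147), without control 2 (adjusted p = 0.06775), with slide as a block (adjusted p = 0.05662) and with only the 2 groups in the fit (adjusted p = 0.0567). Regression minus tumor was -1.51 ± 0.55 and was not called (adjusted p = 0.0852), while all 4 slides gave a negative difference. Probe A_51_P120636, 262 bases away on chromosome 2, was well above background on all 15 arrays. It was at 52.1%, 55.1% and 92.7% in control livers, 35.3%, 55.3%, 71.1% and 35.8% in pre-tumor livers, 152%, 107%, 241% and 60.4% in tumor nodules, and 47.6%, 30.3%, 95.4% and 101% in regressing tumors. Tumor 4 lay among the arrays of the other groups, and tumor minus pre-tumor was 1.39 ± 0.48 (adjusted p = 0.059). This difference was called in 9 of 27 alternatives.

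E2f2 had 1 probe, on chromosome 4. It was at 14.4%, 83.0% and 21.4% in control livers, 68.8%, 87.1%, 12.2% and 53.3% in pre-tumor livers, 96.9%, 121%, 40.3% and 135% in tumor nodules, and 72.4%, 85.6%, 121% and 90.5% in regressing tumors. The groups overlapped, and no comparison was called. Tumor minus control was 1.60 ± 0.68 (adjusted p = 0.14). Regression minus tumor was 0.02 ± 0.63 (adjusted p = 0.991), so the mean signal after 72 hours of doxycycline was close to that in tumor, within a wide standard error.

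E2f3 had 4 probes on chromosome 13, and none was called. The probes to the RefSeq mRNA covered 3387 and 1087 bases of genome, more than their own length. A_51_P487718 was at 12.8%, 16.0% and 22.0% in control livers, 26.2%, 18.7%, 23.7% and 24.6% in pre-tumor livers, 28.7%, 23.9%, 41.6% and 52.1% in tumor nodules, and 21.9%, 25.6%, 16.8% and 16.1% in regressing tumors. Tumor stood above control without overlap, by 1.08 ± 0.35 (adjusted p = 0.0513), with 1 of 3 control arrays well above background. A_52_P508167 was well above background on all 15 arrays and differed little, by 0.31 ± 0.45 between tumor and control (adjusted p = 0.72). A_52_P583458 gave 0.98 ± 0.58 (adjusted p = 0.304) with 1 tumor array and no control array above background. The fourth probe was well above background on 1 of 15 arrays.

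E2f4, the E2F most often found with pocket proteins in resting cells, had 1 probe on chromosome 8. It was at 26.2%, 16.4% and 10.5% in control livers, 10.3%, 11.9%, 16.5% and 13.9% in pre-tumor livers, 27.5%, 30.5%, 24.7% and 59.7% in tumor nodules, and 10.1%, 10.4%, 8.72% and 5.85% in regressing tumors. Tumor was above pre-tumor and regression without overlap, and overlapped with control. E2f4 rose in tumor relative to pre-tumor liver by 1.37 ± 0.37 (adjusted p = 0.017515) and fell in regression relative to tumor by 1.96 ± 0.37 on the log2 scale (adjusted p = 0.0022228). The regression call held in all 27 alternatives run, with an adjusted p of at most 0.0114, and all 4 slides gave a negative difference of -2.78 to -1.40. The probe was well above background on 2 of 4 regression arrays, 3 of 4 tumor arrays and 4 of 4 pre-tumor arrays, and regression minus tumor was -0.68 in the authors' deposited table and -0.34 with normexp. The tumor against pre-tumor call was lost without pre-tumor 1 (adjusted p = 0.05834), without tumor 4 (adjusted p = 0.05574) and without the 4 arrays of brightest spike-in (0.97, adjusted p = 0.1711). Regression minus control was -0.95 ± 0.40 (adjusted p = 0.168), also without overlap.

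E2f5, the other repressor of this kind, had 3 probes on chromosome 3 and no call. A_52_P109319 was at 17.3%, 8.78% and 4.73% in control livers, 9.25%, 5.91%, 6.05% and 45.6% in pre-tumor livers, 15.8%, 21.0%, 28.1% and 27.5% in tumor nodules, and 8.31%, 8.08%, 11.4% and 9.04% in regressing tumors. Tumor and regression did not overlap, with regression minus tumor at -1.30 ± 0.57 (adjusted p = 0.16). A_51_P292906, 290 bases away and well above background on all 15 arrays, varied least of the family. It was at 45.1% to 69.7% in tumor nodules and 40.3% to 65.5% in control livers, and regression minus tumor was -0.51 ± 0.29 (adjusted p = 0.332). A_52_P311718, to an unclassified cDNA clone, was well above background on 4 of 15 arrays.

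E2f6, which represses with Polycomb proteins and does not bind pocket proteins, ran the other way. Probe A_52_P270164 on chromosome 12 was at 81.5%, 119% and 177% in control livers, 78.4%, 146%, 76.0% and 60.7% in pre-tumor livers, 57.3%, 52.8%, 64.0% and 52.3% in tumor nodules, and 36.0%, 49.9%, 47.2% and 51.2% in regressing tumors. Control lay above tumor and regression without overlap. E2f6 fell in regression relative to control by 1.39 ± 0.36 on the log2 scale (adjusted p = 0.029516), a call lost under 8 of 27 alternatives, among them median centring (-1.07, adjusted p = 0.1955) and slide as a block (adjusted p = 0.1007). Without control 3 it was -1.11 (adjusted p = 0.1322). Tumor minus control was -1.08 ± 0.36 (adjusted p = 0.058). The second E2f6 probe was well above background on 1 of 15 arrays.

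Neither Rb1 nor Rbl1 showed a called difference. Rb1 encodes the retinoblastoma protein, and its probe A_51_P136888 on chromosome 14 was at 21.1%, 66.2% and 55.0% in control livers, 51.8%, 60.3%, 28.9% and 32.6% in pre-tumor livers, 54.7%, 56.9%, 22.0% and 46.9% in tumor nodules, and 48.2%, 59.7%, 52.6% and 71.1% in regressing tumors. The groups overlapped, tumor minus control was -0.00 ± 0.46 (adjusted p = 0.997) and regression minus tumor was 0.44 ± 0.42 (adjusted p = 0.628). The other Rb1 probe, 66953 bases away, was at 50.2%, 70.1% and 48.2% on control 1, pre-tumor 4 and tumor 4, and at 6.53% to 26.8% on the other 12 arrays. Rbl1, which encodes p107, followed the same arrays, at 27.1%, 32.2% and 26.0% against 3.19% to 12.3% on the other 12. These 3 arrays were also among the 4 with the brightest spike-in, and the part of that difference between arrays was not tested. Tumor minus control for Rbl1 was -0.21 ± 0.78 (adjusted p = 0.9).

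Rbl2, which encodes the third pocket protein p130, is no listed member and was added after its values were seen. Its probe A_51_P457113 was at 48.3%, 25.1% and 23.9% in control livers, 34.0%, 30.7%, 67.7% and 46.9% in pre-tumor livers, 21.3%, 16.4%, 23.5% and 9.08% in tumor nodules, and 65.2%, 38.2%, 35.6% and 30.0% in regressing tumors. Tumor lay below each of the other groups without overlap, but its highest array (23.5%) was close to the lowest control array (23.9%). Tumor minus control was -0.90 ± 0.43 and was not called (adjusted p = 0.202). The probe was well above background on 2 of 4 tumor arrays and 2 of 3 control arrays. Rbl2 fell in tumor relative to pre-tumor by 1.37 ± 0.40 on the log2 scale (adjusted p = 0.027208) and rose in regression relative to tumor by 1.29 ± 0.40 (adjusted p = 0.042082). Its other probe, well above background on 1 of 4 tumor arrays, gave -2.11 ± 0.65 between tumor and pre-tumor (adjusted p = 0.03398), with overlapping groups. In regression minus tumor that probe gave 0.85 ± 0.65 and was not called (adjusted p = 0.497).

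The other genes of the pathway were taken by list, 1 probe per gene. Of all probes tested, 8.1% were called higher and 6.18% lower in tumor minus control. In regression minus tumor these shares were 6.9% and 7.46%. Of 36 E2F targets of G1 and S phase, 29 rose in tumor relative to control and none fell, with a median difference of 2.99 beside -0.21 for all probes. Dut, which keeps uracil out of DNA, rose by 4.65 ± 0.35 (adjusted p = 4.3301e-07), Uhrf1, which carries DNA methylation through replication, by 4.05 ± 0.31, and the replicative helicase subunits Mcm7 and Mcm6 by 3.72 ± 0.31 and 5.55 ± 0.51. Of the markers of other cells, 4 of 7 stellate cell and fibroblast markers also rose in tumor relative to control. Their summed signal was 2561% to 3837% in tumor and 459% to 622% in control. Of 8 macrophage markers, 2 rose and 2 fell there. Of the endothelial, bile duct and erythroid markers 1 each fell. No T and NK cell, B and plasma cell or neutrophil marker was called. The part of other cells in the cycle gene changes was not tested. In regression relative to tumor, 31 of the 36 S phase targets fell and none rose, with a median of -2.70. Dut fell by 4.43 ± 0.32 and Uhrf1 by 4.24 ± 0.29 on the log2 scale.

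Of 22 targets of G2 and mitosis, 18 rose in tumor relative to control and none fell, with a median of 3.57. Of all probes, 8.1% were called higher there. Birc5, a subunit of the chromosomal passenger complex, rose by 5.94 ± 0.37 (adjusted p = 1.1642e-07), and Mad2l1, of the spindle checkpoint, by 4.60 ± 0.40. Cdk1, the mitotic kinase, was at least 14.3-fold higher in tumor than in control, where 0 of 3 arrays were well above background. Cenpa, the centromeric histone, rose by 4.78 ± 0.36, with 1 of 3 control arrays well above background. In regression relative to tumor, 21 of the 22 fell, beside 7.46% of all probes. Of all probes, 4.03% were called higher and 2.8% lower in regression minus control. In regression relative to control, Cenpa was higher by 3.06 ± 0.36, Mad2l1 by 1.62 ± 0.40 and Birc5 by 1.41 ± 0.37, the 3 mitotic genes called. Of the S phase list, Mcm2, a helicase subunit, was higher by 1.72 ± 0.40 (1 of 3 control arrays well above background), while Mcm10, which acts at replication forks, was at -2.74 ± 0.49 and Ung, a uracil glycosylase, at -1.40 ± 0.35, both lower in regression. These S phase genes were named after their values were seen. In pre-tumor relative to control, no gene of any list was called, and 0.0% of all probes were.

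The DP partners, which form the DNA-binding dimers with E2F1 to E2F6, followed tumor. Tfdp1 rose by 3.08 ± 0.41 in tumor relative to control (adjusted p = 8.7257e-05) and fell by 2.91 ± 0.38 on the log2 scale in regression relative to tumor. Tfdp2 was 0.95 ± 0.37 in tumor minus control, not called, and fell by 1.13 ± 0.35 in regression relative to tumor. Of 7 genes of the MuvB core and its mitotic partners, 3 rose and 1 fell in tumor relative to control, and none rose and 5 fell in regression relative to tumor: Foxm1, Mybl2, Rbbp4, Lin9 and Lin54, the Lin genes named after their values were seen. Of all probes, 8.1% rose and 6.18% fell in tumor relative to control, and 7.46% fell in regression relative to tumor. Foxm1 and Mybl2, the transcription factors that join MuvB in cycling cells, rose in tumor relative to control by 3.43 ± 0.39 and 2.80 ± 0.60. The histone chaperone Rbbp4 rose by 1.56 ± 0.38. Lin52, the subunit that docks pocket proteins, fell by 1.71 ± 0.40 on the log2 scale, with 1 of 4 tumor arrays well above background.

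Of 8 G1 cyclins and kinases, 3 rose in tumor relative to control: Cdk4 by 2.98 ± 0.39, Ccne2 by 2.07 ± 0.43 and Ccnd3 by 1.23 ± 0.32. Of all probes, 8.1% were called higher there and 6.18% lower. In regression relative to tumor, Cdk4, Ccne2, Ccnd3 and Cdk2 fell and 1 gene rose, where 7.46% and 6.9% of all probes did. Cdk4 fell by 1.78 ± 0.36 on the log2 scale, and Ccnd2, a D cyclin, rose by 1.16 ± 0.33. Cdk2 and Ccnd2 were named after their values were seen. Of 6 measured CDK inhibitors, Cdkn1c alone was called, at 3.64 ± 0.39 higher in tumor than in control and 2.63 ± 0.39 higher in regression than in control. In these comparisons 14.3% and 6.83% of all probes were called, so 1 of 6 describes the gene and not the list. Cdkn2a was on the array but too dim to be tested. Of 8 cofactors that pocket proteins recruit, 3 rose in tumor relative to control, the histone methyltransferase Suv39h1 by 2.59 ± 0.42, the remodeller Smarca4 by 1.74 ± 0.37 and the deacetylase Hdac1 by 1.20 ± 0.29. In regression relative to tumor Suv39h1 alone of these 8 was called and fell by 1.86 ± 0.39 on the log2 scale, where 14.4% of all probes were called. Of 9 partners of E2F6, Cbx3, a heterochromatin protein, alone was called, rising by 2.41 ± 0.35 in tumor relative to control. It fell by 2.04 ± 0.32 on the log2 scale in regression relative to tumor. In these comparisons 14.3% and 14.4% of all probes were called, so 1 of 9 is close to the rate over the whole array.

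Among the cell death genes described as E2F1 targets, Pmaip1 (Noxa) and Bbc3 (Puma) rose in tumor relative to control. Pmaip1 rose by 2.76 ± 0.73, with 1 of 3 control and 3 of 4 tumor arrays well above background. Bbc3 rose by 1.29 ± 0.37. Casp8, Apaf1, Trp73, Bcl2l11 and Hrk were not called in tumor minus control, at differences of -1.24 to 1.42. Some genes of this list are not reported here, so the 2 rises do not describe the list. In regression relative to tumor, Bcl2l11 (Bim) rose by 2.49 ± 0.31 and Casp8, an initiator caspase, by 1.63 ± 0.44, both named after their values were seen. Pmaip1, Bbc3, Apaf1, Trp73 and Hrk were not called in that comparison, at differences of -0.72 to 0.72. Markers of other cells moved at the same time: 5 of 8 macrophage markers, 4 of 8 T and NK cell markers, 4 of 7 endothelial markers, 5 of 7 stellate cell and fibroblast markers and 4 of 6 erythroid markers rose in regression relative to tumor. Of all probes, 6.9% were called higher there. The summed signal of the macrophage list was 12789% to 23862% in regression and 3616% to 4205% in tumor, and each of its 8 markers was well above background on at least 1 array of each group. The part of these cells in the changes of the cell death and cycle genes was not tested.

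**Figure D4:**
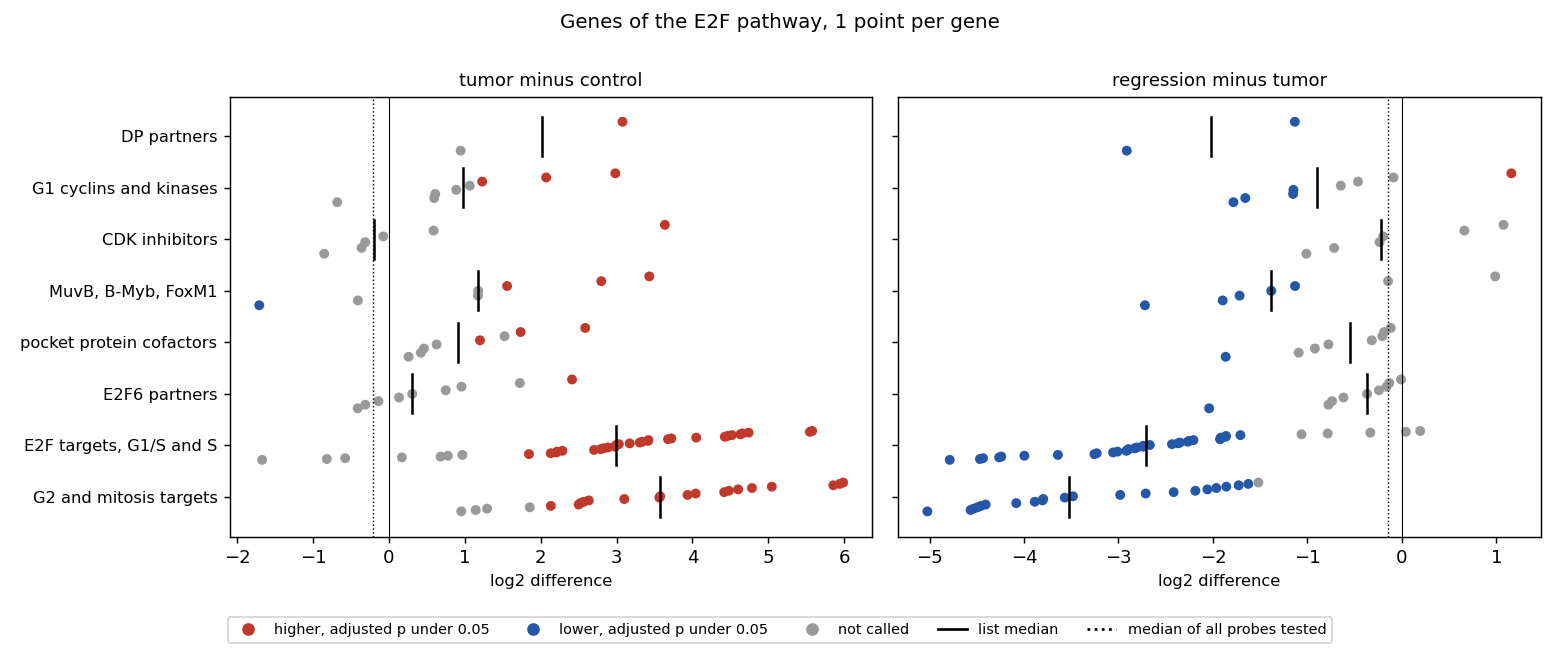
Log2 difference of each measured gene of 8 pathway lists (1 point per gene, its brightest probe) in tumor minus control and regression minus tumor, coloured where the adjusted p was under 0.05, with each list's median as a bar and the median of all probes as a dotted line. The S phase and mitotic target lists lie to the right in tumor minus control, with medians of 2.99 and 3.57, and to the left in regression minus tumor, with medians of -2.70 and -3.52; the CDK inhibitors and E2F6 partners stay mostly near 0.

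The genes most like the most variable members were found by the root mean square difference of centred log2 profiles over the 15 arrays, among 18504 genes. For the mRNA probe of E2f8 they were Pllp (0.60), Ung (0.61) and Lingo3 (0.64), where the median gene stood at 1.48. For the second E2f8 probe they were Etfbkmt (0.70), Adh7 (0.74) and Ang2 (0.79), with a median of 1.76. For E2f2 they were Csf2ra (0.50), Slc7a9 (0.56) and Hps3 (0.57), with a median of 1.28. The nearest genes of the E2f8 probes were thus different sets. These are descriptions over arrays of 4 groups that share depth and normalization.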

How the data were processed

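Per the labels, RNA was isolated from frozen liver and tumor tissue (mirVana), then amplified as a whole transcriptome, labelled with Cy3 and hybridised to Agilent mouse 4x44K arrays, 1 sample per array. Per the file headers, Agilent Feature Extraction 10.5.1.1 read the images, and the deposited intensity values (processed signal, background subtracted, linear scale) were not normalized between arrays. The authors also deposited a log2 table with gene symbols whose normalization is not given in the sources used here. It served for the symbols, the probe places and as an alternative.

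Log2 of the processed signal was taken minus the 75th percentile of its array. Non-uniform and population outlier spots were dropped, and the remaining spots of a probe averaged. Probes well above background on at least 3 of 15 arrays were kept (33957 of 41174). limma 3.58.1 in R 4.3.3 fitted 1 model of 4 groups with 11 residual degrees of freedom and 5 comparisons, two-sided. P-values were adjusted by Benjamini-Hochberg over all probes kept, with a threshold of 0.05. Its procedure was tested on simulated data. Slide was tried as a block, since 4 slides held at most 1 array of each group.

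The members and the lists were chosen with earlier results of these data known. Each member probe is named. From each wider list the 2 to 4 genes of lowest adjusted p in tumor minus control are named, by the gene's probe of highest mean, and the 3 genes nearest in profile to the 3 most variable members. The lists were the DP partners, MuvB with Mybl2 and Foxm1, G1 cyclins and kinases, CDK inhibitors, pocket protein cofactors, E2F6 partners, E2F targets of S phase and of mitosis, and cell death targets, with markers of 9 cell types. Some genes of the cell death list are not reported here, and no counts are given for that list. Of the markers of B and plasma cells and of bile duct cells, 0 of 6 and 1 of 6 rose in regression relative to tumor, and of 4 measured neutrophil markers none. Of all probes, 6.9% were called higher in that comparison. The deposited scanner tables hold no mean spot signal, so normexp (offset 50) was run on the median spot signal and its median background. Probe coordinates are not printed because their build is not given in the sources used here. Promoter sequences and places are RefSeq's for GRCm38.p6. Samples were not paired by replicate number in the fit reported. Of 21 pairs of arrays with the same number, 12 had a correlation of deviations over 0.1, and the range was -0.41 to 0.61. With the replicate number as a block, 21.2% of all probes were called in tumor minus control, against 14.3%. Whether the shared numbers pair samples was not settled.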

Additional observations from a re-analysis of the deposited data

Results flagged for a closer look

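Of 48 probe and group combinations examined for a single distant array, 1 was marked. For E2f5 probe A_51_P292906, regression 1 stood at 32.34% of the array's 75th percentile, against 40.44% to 42.06% on the other 3 regression arrays. On the log2 scale the gap was 0.851 of the group's range. Chance marks about 1 in 20 groups of this size, so a single mark among 48 is fewer than that rate gives. No E2f5 call rested on this array, since none of the probes of E2f5 was called.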

How the results depend on the processing

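The E2f8 calls in regression minus tumor and tumor minus pre-tumor (mRNA probe), those of the second E2f8 probe against control, and E2f4 in regression minus tumor held under every alternative run. Among member probes, no difference called in the fit reported changed sign under an alternative. Some uncalled differences did, such as E2f3 probe A_52_P508167 in tumor minus control (-0.30 to 0.61). In tumor minus control, 2 of 16 probes were called in the fit reported, against 5 with quantile normalization, 5 with median centring, 5 with normexp, 6 in the authors' deposited table, 4 with a filter for every array of a group, 1 with slide as a block and 1 with only the 2 groups. Leaving out 1 array gave 1 to 3 there, with 1 without control 3. In regression minus control, 3 member probes were called, against 1 with median centring, 1 with slide as a block and 1 with only the 2 groups. Over all probes, the fit reported called 1369 higher and 950 lower. Median centring called 1685 and 682, slide as a block 895 and 497, and only the 2 groups 1113 and 1096. Leaving out 1 array gave 1 to 3 member probes there, with 1 without control 3, regression 1 or regression 2. These fits called 960, 895 and 979 of all probes higher and 589, 580 and 594 lower. In regression minus tumor, 2 were called, against 4 with only the 2 groups and 1 with 1 probe per symbol, where 9 probes were tested. Over all probes, the fit reported called 2342 higher and 2532 lower, and only the 2 groups 2422 and 2695. With 1 probe per symbol, 1614 and 1636 of 19362 were called. Leaving out 1 array gave 2 to 3 member probes. The cause of these differences between settings was not tested. With the replicate number as a block (replicate block), the counts were 0, 2, 4, 2 and 4 in pre-tumor minus control, tumor minus control, tumor minus pre-tumor, regression minus tumor and regression minus control, against 0, 2, 3, 2 and 3. Over all probes, that block called 3412 higher and 3458 lower in tumor minus pre-tumor, against 3034 and 2731. In regression minus control it called 1992 and 4021, against 1369 and 950. The 36 S phase and 22 mitotic targets kept counts within 1.5 times under every alternative. Signal over background limited the dim members: both E2f7 probes and the fourth E2f3 and second E2f6 probes were above it on 1 of 15 arrays each, and Rbl1 and E2f5 probe A_52_P311718 on 4 of 15.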
